A study of Mus musculus with 16 samples.

Results

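The regions described here are stretches of chromatin that were called open in CD8+ T cells sorted from the tumours of mice given LC3-GFP positive T cells, and not in those from mice given LC3-GFP negative T cells. Peaks of the 8 tumour ATAC-seq libraries were joined into regions wherever 2 shared at least 1 bp, and a region was kept if all 4 positive libraries and none of the 4 negative libraries had a peak in it. Of 72327 merged regions, 500 met this rule, or 0.691%. They are called positive-only regions. The mirror set, with a peak in all 4 negative and no positive library, held 750 regions, or 1.04%, and 20969 regions had a peak in all 8 libraries.

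The cells were CD8+ T cells of Pmel mice, which carry a transgenic receptor for a melanocyte antigen, crossed to a reporter that fuses LC3 to GFP and RFP. Before sorting, all of them spent 3 days with αCD3 and αCD28 antibodies, each at 2 µg/ml, and IL2 at 100 IU/ml, and were exposed to carbon monoxide (CO) for 24 h. Sorting gave the LC3-GFP(pos) and LC3-GFP(neg) populations. An untreated group was not analysed here, so both groups share the stimulation and the CO. C57BL/6 hosts bore subcutaneous B16-F10 melanoma, begun 12 days earlier with 300000 cells, and received 300000 sorted T cells of either kind. After 15 more days the tumours of 4 mice per group were taken and each gave 1 library of sorted Vβ13+CD8+ cells. Vβ13 is the receptor chain of the Pmel transgene, but host CD8+ T cells can carry it too, and the labels name no congenic marker. ATAC-seq of the sorted cells before transfer, called in vitro here, had 2 positive and 2 negative libraries, and RNA of such cells had another 2 and 2. The ages and sexes of the mice are not given in the sources used here.

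ATAC-seq marks DNA that the transposase Tn5 can cut, which in T cells means active promoters and distal regulatory elements such as enhancers. Promoters are often open in many cell states, whereas distal elements differ more between naive, effector, memory and exhausted CD8+ T cells. LC3 coats autophagosomes, and its GFP signal is quenched in the acid of the lysosome, so LC3-GFP reporters are used to follow autophagy. The comparison sets tumour T cells of mice given either population side by side.

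The positive-only regions were chosen from the contrast between the tumour groups, so their tumour values are a description and were not tested. Chromatin in vitro, RNA, position and sequence were not used to choose them. A region without a listed peak is not shown to be closed, because the peak lists give no value below their threshold. Differences in openness per cell and in the mix of cells within a sort cannot be told apart.

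The tumour libraries held 27406 to 37477 peaks in the positive group (34644 ± 4841, SD, n = 4) and 33704 to 55171 in the negative group (41517 ± 9672, SD, n = 4). The 2 groups overlapped, with p = 0.314 in a two-sided exact permutation test. Read depth is unknown from these lists. Positive replicate 1 had the fewest peaks, and negative replicate 2 the most, with 22250 merged regions found in that library alone. All 9 CD8 T cell marker genes that could be placed had a peak at a gene start in every tumour library. Of 9 placed B and plasma cell markers, positive libraries had 1 to 5 and negative libraries 1 to 3. Of 9 placed myeloid markers, positive libraries had 4 to 5 and negative libraries 5 to 9, with the 9 in negative replicate 2. Of 5 placed melanoma markers, each library had 2. Of 7 placed fibroblast, endothelium and epithelium markers, positive libraries had 2 to 3 and negative libraries 2 to 5. The 5 were in negative replicate 2. Of 4 placed NK cell markers, positive libraries had 0 to 2 and each negative library 2. Of 7 placed granulocyte and mast cell markers, positive libraries had 0 to 1 and negative libraries 0 to 2. Of 3 placed CD4 T cell and 4 placed erythroid markers, each library had 1. The part of other cells in the results below was not tested.

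Some of the positive-only regions covered the start of a gene, and the letters of those promoters are shown first because they are the sequences at hand for the set. Promoter windows in the RefSeq table for GRCm38.p6, the assembly that mm10 names, run from 250 bases before to 50 bases after a gene start. Among 32817 such windows, 10 overlapped a positive-only region, and 2 of these were alternative starts of Myl10 within 1 region. The 5 in which at least 2 of the 4 positive libraries had their peak summit are printed 5′ to 3′ on the gene's strand. Capitals mark letters that match any searched motif. Tnk2os is an antisense transcript of the kinase gene Tnk2 (window chr16:32668148-32668447, minus strand), Gm35425 a predicted gene (chr3:35318187-35318486, plus strand) and Gm33821 a predicted gene within Smurf1 (chr5:144919803-144920102, plus strand). A530021J07Rik is at chr7:83148220-83148519 on the plus strand, and Lman1l, which encodes a lectin related to a cargo receptor of the secretory pathway, at chr9:57620725-57621024 on the minus strand.
Tnk2os: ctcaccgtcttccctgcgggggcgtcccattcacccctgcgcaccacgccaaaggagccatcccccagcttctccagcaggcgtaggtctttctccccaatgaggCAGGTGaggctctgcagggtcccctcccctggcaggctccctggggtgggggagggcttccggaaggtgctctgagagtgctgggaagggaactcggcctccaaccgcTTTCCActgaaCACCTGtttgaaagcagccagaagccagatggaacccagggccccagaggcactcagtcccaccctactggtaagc
Gm35425: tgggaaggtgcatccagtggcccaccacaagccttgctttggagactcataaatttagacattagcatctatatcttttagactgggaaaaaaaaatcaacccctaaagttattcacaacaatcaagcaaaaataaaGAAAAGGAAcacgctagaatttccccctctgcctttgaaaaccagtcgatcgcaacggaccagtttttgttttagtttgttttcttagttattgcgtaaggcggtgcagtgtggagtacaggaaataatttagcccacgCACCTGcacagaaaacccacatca
Gm33821: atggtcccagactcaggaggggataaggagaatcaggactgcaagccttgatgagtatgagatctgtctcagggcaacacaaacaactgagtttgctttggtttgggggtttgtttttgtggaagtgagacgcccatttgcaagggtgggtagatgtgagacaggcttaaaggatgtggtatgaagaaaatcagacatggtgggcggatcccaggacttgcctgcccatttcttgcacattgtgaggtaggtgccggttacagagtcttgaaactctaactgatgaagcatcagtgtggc
A530021J07Rik: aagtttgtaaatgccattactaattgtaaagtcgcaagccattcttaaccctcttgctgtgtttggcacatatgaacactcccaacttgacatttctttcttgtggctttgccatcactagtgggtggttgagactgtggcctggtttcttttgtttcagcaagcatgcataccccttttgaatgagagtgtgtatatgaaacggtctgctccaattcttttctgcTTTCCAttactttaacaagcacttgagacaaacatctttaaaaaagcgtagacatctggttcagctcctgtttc
Lman1l: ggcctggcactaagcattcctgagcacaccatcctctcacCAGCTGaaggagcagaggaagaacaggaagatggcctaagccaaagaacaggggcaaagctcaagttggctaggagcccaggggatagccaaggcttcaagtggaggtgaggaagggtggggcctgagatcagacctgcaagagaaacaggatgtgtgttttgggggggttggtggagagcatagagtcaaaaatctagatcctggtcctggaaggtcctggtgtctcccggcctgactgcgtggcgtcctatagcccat

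The Tnk2os window holds the E-box bound by ZEB factors in both orientations and 1 NFAT core. The Gm35425 window holds 1 such E-box and 1 IRF repeat, A530021J07Rik 1 NFAT core, and Lman1l the E-box of E proteins. None of the searched letters occurred in the Gm33821 window. The motifs were searched on both strands. The AP-1 site was written as TGANTCA and its BACH-type form as GCTGAGTCA. The cyclic AMP element was TGACGTCA and the ATF4-CHOP composite site TGATGNAA. The ETS site was AGGAAGT, and that of RUNX factors was TGTGGTT. For TCF and LEF factors the letters were CTTTGAT, and for NFAT they were TGGAAA. The NF-kB site was GGGANTTCC, and that of T-box factors was AGGTGTGA. E proteins were searched with CAGCTG, and the related ZEB factors with CAGGTG. The IRF repeat was GAAANNGAA and its BLIMP1 form GAAAGTGAA. The core of the CTCF site was AGGGGGC, and NR4A receptors had AAAGGTCA. KLF factors were searched with GGGNGTGG and SP factors with GGGCGGGG. Hypoxia-inducible factors were searched with ACGTG, GATA factors with AGATAA and STAT factors with TTCNNNGAA. Every BACH-type match is also an AP-1 match, and every BLIMP1 match an IRF match.

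Across the 10 windows, CAGGTG occurred in 3, against 20.2% of all promoter windows and 21 of the 64 mirror-set windows (32.8%). NFAT letters were in 2 of the 10 (21.4% of all windows), ETS letters in 2 (9.36%) and AP-1 letters in 1 (7.81%). In the mirror-set windows these 3 were in 15.6%, 4.69% and 10.9%. The SP, KLF and HIF letters were in 0 of the 10, and in 17.6%, 17.6% and 19.6% of all windows. In the mirror-set windows they were in 29.7%, 29.7% and 25.0%. By comparison, the SP letters were in 34.5% of the 12594 windows that overlapped a region open in all 8 libraries. Median GC content was 49.7% in the 10 windows (40% to 64%) and 57.3% in the mirror-set windows. It was 62.0% in the windows open in all 8 libraries and 52.7% in all windows. A match is a run of letters and not a bound site, and 10 windows are few. Most positive-only regions lay outside any promoter window, and their sequences were not analysed here.

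Of 1005 miRNA hairpins in the RefSeq table, 155 overlapped any merged tumour region and 1 a positive-only region. This was Mir1943, inside the gene Tmem184b, whose mature strands are printed with their seeds (bases 2 to 8) in capitals. The mature strands lie at chr15:79375271-79375293 (5p) and chr15:79375236-79375256 (3p) on the minus strand, and the region spans chr15:79374535-79375292.
mmu-miR-1943-5p: aAGGGAGGaucugggcaccugga
mmu-miR-1943-3p: cAGGUGCCagcuccucccuuc
Its fold enrichment was 6.84, 6.85, 5.46 and 5.97 in positive replicates 1 to 4, and no in vitro library had a peak there.

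**Figure D1:**
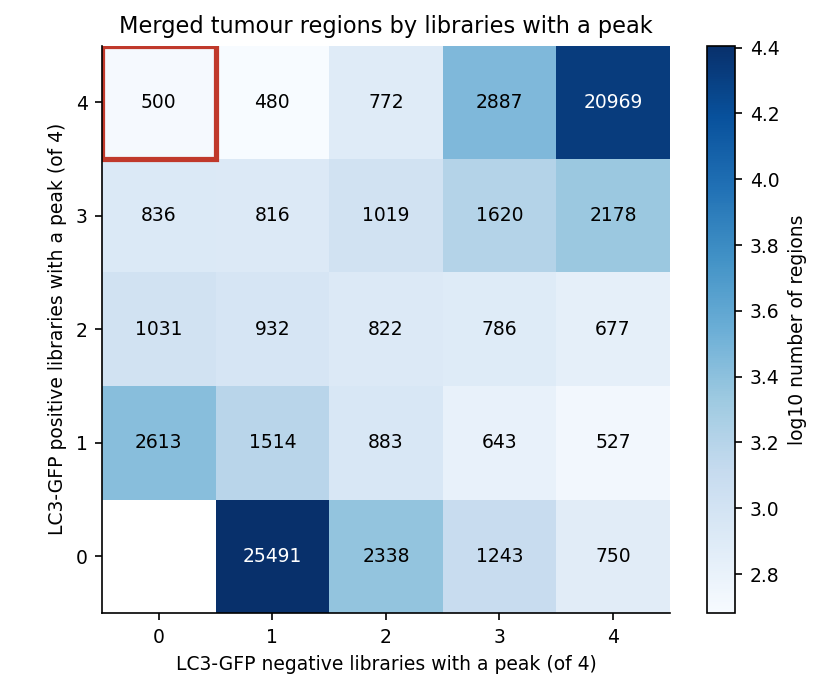
Number of merged tumour regions by how many LC3-GFP positive libraries (vertical axis, of 4) and LC3-GFP negative libraries (horizontal axis, of 4) had a peak, with colour on a log10 scale. The 500 positive-only regions are boxed at the upper left, the 750 of the mirror set are at the lower right and the 20969 regions of all 8 libraries at the upper right.

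Next to the 500 regions lay 480 that had a peak in all 4 positive libraries and in 1 negative library. The negative library was replicate 1 in 195 of these, replicate 2 in 110, replicate 3 in 116 and replicate 4 in 59. A further 836 regions had 3 positive and no negative library, and positive replicate 1, the library with the fewest peaks, was the one missing in 708 of them. Replicates 2, 3 and 4 were missing in 50, 43 and 35. Without positive replicate 1, 1208 regions met the rule, and 1526 without both that library and negative replicate 2. The plot of regions by libraries with a peak shows the same counts.

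The authors' peak values are given per library, with fold enrichment over the library's own local background and −log10 of the q-value, the false discovery rate of a peak. At the edge of the rule, the weakest of its 4 peaks had a −log10 q of 1.37 in the region in Galnt10 (chr11:57710549-57711796), 1.70 in the next and 1.77 in the one after. The median of this weakest value over the 500 regions was 5.36, the highest 17.0, and 10 regions were under 2. Just outside, the single negative peak had a −log10 q of 1.42 near H2bfm on chromosome X, 1.43 in Ippk on chromosome 13 and 1.46 in Clic4 on chromosome 4.

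Peaks in the positive-only regions were lower by median than those in the regions of all 8 libraries. Their median fold enrichment was 4.98, 5.46, 5.28 and 5.18 in positive replicates 1 to 4, against 6.43, 6.37, 6.16 and 6.03 for the regions of all 8 libraries. Over all peaks of these libraries the medians were 5.90, 5.43, 5.33 and 5.14. The mirror set was lower too, at 5.87, 4.01, 4.75 and 4.58 in negative replicates 1 to 4. There the regions of all 8 libraries had 7.53, 4.75, 5.99 and 6.06. Individual values ran from 1.78 to 11.2. The median pileup, the number of fragments stacked at the summit, was 12.5 in replicate 1 and 23, 24 and 27 in the others. Ranked within each library by q-value, the median region stood at percentile 19.0 in replicate 1 and at 34.2, 33.4 and 34.9 in the others. The 4 summits of a region spanned a median of 175 bp, which was 234.5 bp in the mirror set and 165 bp in the regions of all 8 libraries.

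**Figure D2:**
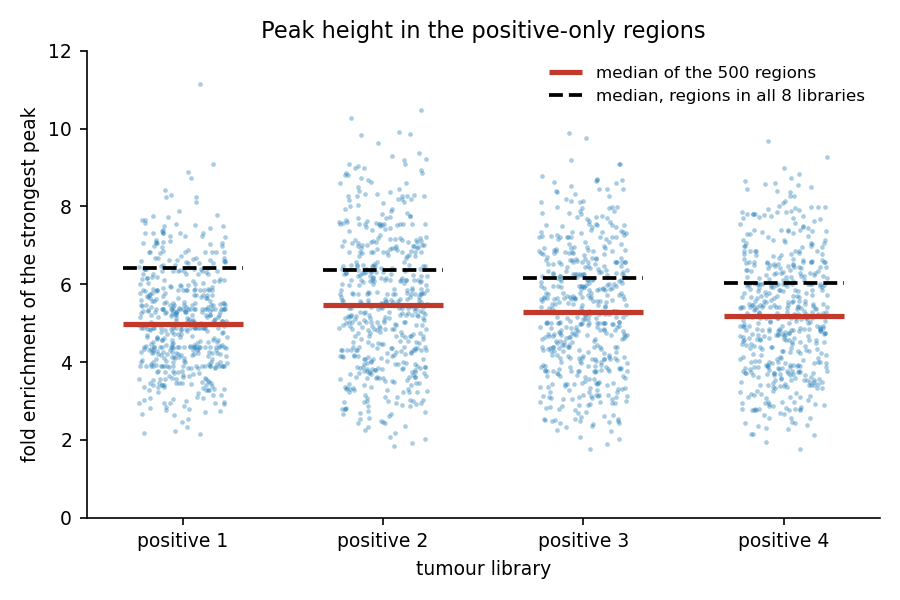
Fold enrichment over local background (vertical axis, the authors' values) of the strongest peak in each of the 500 positive-only regions (points), by tumour LC3-GFP positive library. Solid lines are the medians of these regions, 4.98 to 5.46, and dashed lines those of the regions open in all 8 libraries, 6.03 to 6.43; the points overlap both.

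Most positive-only regions were distal. Only 22 (4.4%, 95% Wilson interval 2.92% to 6.57%) lay within 1.0 kb of a gene start, against 10.1% of the mirror set, 20.7% of all merged regions and 53.5% of those open in all 8 libraries. Another 279 (55.8%) lay in the body of a protein-coding gene, and 199 (39.8%) outside. These shares were 47.3% and 42.5% in the mirror set and 44.5% and 34.8% over all merged regions. The median distance to a gene start was 20.9 kb, compared with 16.1 kb in the mirror set and 12.4 kb over all merged regions. Median length was 1011.5 bp (505 to 2556), beside 1112 bp in the mirror set and 1041 bp over all merged regions. The regions of all 8 libraries were longer at 1663 bp. Within 10 kb of a region open in all 8 libraries lay 150, or 30% of the 500, and 33.7% of the mirror set.

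**Figure D3:**
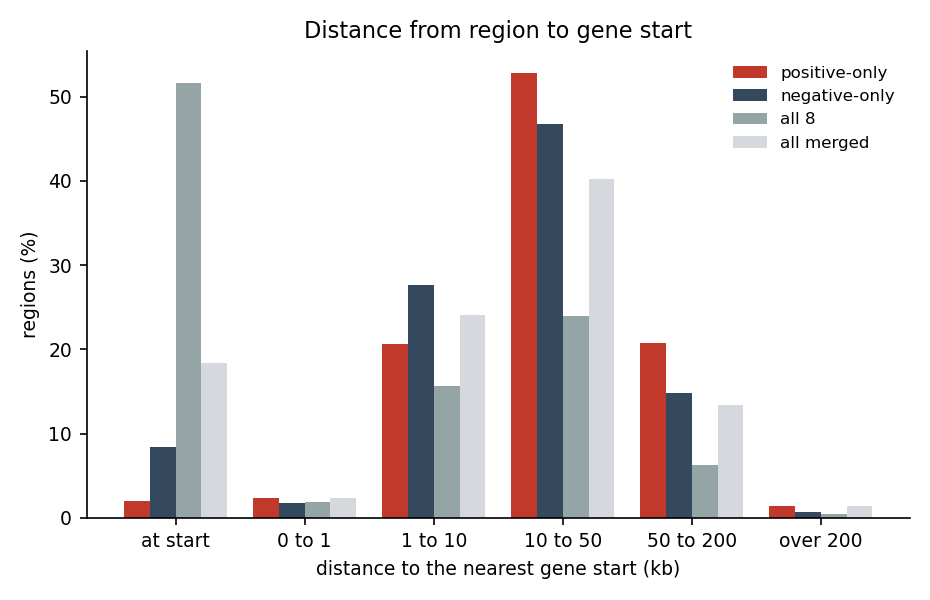
Share of regions (vertical axis, %) by distance to the nearest gene start (horizontal axis, kb) for the positive-only regions, the mirror set, the regions open in all 8 libraries and all merged regions. Of the positive-only regions 52.8% lay 10 to 50 kb from a start, where 40.3% of all merged regions lay.

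Protein-coding genes holding a positive-only region, each gene counted from 2.0 kb upstream of its start, numbered 280. Of these, 260 had 1, 18 had 2 and 2 had 3. They were long genes, with a median of 95.1 kb against 22.9 kb for the 15720 genes that held any merged tumour region. Genes of the mirror set were long as well, with a median of 76.3 kb. The genes with 3 were Smurf1, a ubiquitin ligase that acts in TGF-beta and BMP signalling, and Mrtfa, an actin-regulated coactivator of serum response factor. The promoters of the genes were mostly open in every library: 164 of 229 genes with a start in the promoter table (71.6%) had a region of all 8 libraries within 1.0 kb of one. Among genes that overlapped any merged region this share was 75.0%.

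Tox encodes an HMG-box factor that is required for the exhausted CD8+ T cell state, and one of the 10 strongest positive-only regions lay within it. The region (chr4:6969766-6971099) was 20.5 kb from the gene's start. Fold enrichment was 7.66, 7.61, 6.80 and 7.37 in positive replicates 1 to 4, and no negative library had a peak. The start of Tox itself was open in all 8 libraries, with fold enrichments of 4.73 to 5.10 in positive libraries against 4.12 to 6.41 in negative ones. In vitro the same region had a peak in all 4 libraries, at 4.97 and 4.99 in positive cells against 5.21 and 5.88 in negative cells. The region was therefore called before transfer in both populations, and in the tumour in the positive group.

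Lef1 and Foxp1, transcription factors associated with naive and memory T cells, also held positive-only regions. The Lef1 region (chr3:131190493-131191664) lay inside the gene, 34.2 kb from the nearest of its listed starts, which is an internal one, with fold enrichments of 6.99, 6.30, 5.58 and 4.59. In Foxp1 (chr6:99322036-99322992) they were 5.29, 5.17, 4.89 and 4.98. Both regions had peaks in all 4 in vitro libraries, as the Tox region did.

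Upstream of Bach2, a repressor that restrains effector differentiation, a positive-only region (chr4:32229217-32229993) lay 8.42 kb from the gene's start. Its fold enrichment was 4.41, 5.20, 3.45 and 4.94 in the tumour. In vitro both positive libraries had a peak there, at 3.35 and 3.56, and neither negative library had one. It was 1 of 5 positive-only regions with that in vitro pattern. The start of Bach2 was open in all 8 tumour libraries. Inside the gene lay a region of the mirror set (chr4:32374857-32376872), with fold enrichments of 5.11, 2.49, 4.45 and 4.58 in negative replicates 1 to 4, which had peaks in all 4 in vitro libraries. The Bach2 locus thus held 1 region of each set.

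Among the genes of the pathway lists, signalling and adhesion were represented by Tgfbr3, Jak1 and Itga4. Tgfbr3 encodes betaglycan, a coreceptor for TGF-beta, and its region (chr5:107165287-107166250) varied between libraries, with fold enrichments of 3.74, 8.94, 5.89 and 7.87. The region in Jak1, a kinase of cytokine receptors, was weaker at 3.76, 2.97, 2.91 and 3.74. Itga4 encodes the alpha4 integrin chain used in homing, and its region (chr2:79276225-79277215) had even values of 3.58, 3.57, 3.40 and 3.44. No in vitro library had a peak in the Itga4 or Jak1 region, while all 4 had one in the Tgfbr3 region.

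Chromatin regulators on the pathway lists held 3 positive-only regions. Tet1, which oxidises methylated cytosine, had one 35.2 kb from its start with fold enrichments of 4.63, 6.97, 5.71 and 6.87 and no in vitro peak. Arid1b, a subunit of BAF remodelling complexes, had 2 regions, one at 4.16, 3.77, 3.14 and 3.41 and the other at 4.18, 5.40, 5.28 and 4.18, both with peaks in all 4 in vitro libraries. Gabpa, an ETS factor for nuclear genes of mitochondria, had one at 4.73, 3.96, 4.67 and 4.47, which no in vitro library shared.

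Over the pathway lists, 9 of 464 genes with any tumour region held a positive-only region (1.94%), beside 280 of 15720 protein-coding genes (1.78%). The 9 were Tox, Lef1, Foxp1, Tgfbr3, Jak1, Itga4, Tet1, Arid1b and Gabpa. The list for PERK and the integrated stress response had 0 of 26 genes with one, and the autophagy machinery 0 of 35. The same held for 27 genes of effector function, 35 of T cell receptor signalling and 29 of AP-1 and related factors. A count of 0 speaks only for the genes on that list. Genes outside the lists that held a positive-only region include Uvrag, Fyco1, Ppp3ca, Plcg2, Skap1 and Grap2. Regions of the mirror set were held by 393 of the 15720 genes. Its highest count was in the list of cytokine receptors and STATs, with 5 of 32 (Il18rap, Ifnar2, Stat3, Stat4 and Stat5b). The memory list had 3 of 28 (Bach2, Il6ra and Cxcr5), the T cell receptor list 3 of 35 and the exhaustion list 1 of 29, Tox2, a relative of Tox.

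The strongest region by rank within libraries lay in Kif1b, a kinesin motor gene (chr4:149282088-149283267). Its fold enrichment was 7.40, 8.30, 8.27 and 7.28. Others among the 10 strongest were in Lbp, which encodes the lipopolysaccharide-binding protein (7.65, 9.86, 8.63 and 8.40), and in Mia2, a gene of protein export from the endoplasmic reticulum (7.53, 8.03, 7.72 and 7.87). The regions near Rflnb and Gypc ranged from 7.12 to 8.73 and from 7.32 to 8.85. All 5 had peaks in all 4 in vitro libraries. The regions near Map10 (4.70 to 5.69) and in Vezf1 (3.89 to 5.31) had no in vitro peak.

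The highest single fold enrichment, 11.2 in positive replicate 1, lay at chr14:52427194-52428308. In the other positive libraries the values were 8.80, 8.11 and 7.08. The region overlaps Trav1, a variable segment at the 5′ end of the T cell receptor alpha locus, and the nearest start in the tables used here is that of the olfactory receptor gene Olfr1510. Only in vitro negative replicate 1 had a peak there before transfer. Looking at the locus after this value was seen, 3 of its 102 merged regions (2.94%) were positive-only and 0 were in the mirror set. Over all merged regions these shares were 0.691% and 1.04%. A second one (chr14:52436540-52437356) had fold enrichments of 5.37, 5.04, 4.39 and 6.00, and the third (chr14:54102272-54103271) 3.91, 3.24, 3.13 and 5.14. The T cell receptor beta locus held 1 among 41 regions (2.44%) and the gamma locus 0 among 14. The immunoglobulin heavy chain and kappa loci held 0 among 100 and 0 among 4. Peaks in the alpha locus numbered 39, 65, 70 and 75 in positive replicates 1 to 4 and 60, 21, 48 and 41 in negative replicates 1 to 4, so the groups overlapped.

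At gene starts, the strongest positive-only regions were those at Gm33821 within Smurf1 (6.59, 6.87, 6.74 and 6.43), at 0.602 kb from Gm32581 within the oxysterol-binding protein gene Osbpl9 (7.25, 8.11, 6.85 and 6.81), and at 0.615 kb from the fucosyltransferase gene Sec1 (8.23, 4.94, 7.34 and 5.05). Gm35425 had 6.68, 7.01, 8.64 and 6.57. The Myl10 region, at a myosin light chain gene, had 5.93, 8.45, 7.52 and 6.34. The other 5 named by the rule, at Gm38827, Gm30863, Gm16066 within Kmt5b, Agbl1 and Gm35409, lay between 4.43 and 7.56. Of the remaining windows printed above, A530021J07Rik had 3.85, 7.47, 6.64 and 5.71 and Lman1l 3.29, 2.97, 3.13 and 2.78. Most of these starts belong to predicted or noncoding genes.

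The weakest 3 by rank lay in Nipbl (2.98 to 3.90), the loader of cohesin, in Cog6 (3.45 to 3.96), a subunit of a Golgi tethering complex, and at Tnk2os within Tnk2 (2.88 to 3.30).

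The cells before transfer offer libraries that the rule did not use. A peak overlapped a positive-only region in 216 of 500 regions in in vitro positive replicate 1 (43.2%, Wilson 95% interval 38.9% to 47.6%) and in 169 in replicate 2 (33.8%, 29.8% to 38.1%). In in vitro negative replicates 1 and 2 these were 282 (56.4%, 52.0% to 60.7%) and 236 (47.2%, 42.9% to 51.6%). Both negative libraries thus lay above both positive ones, opposite to the order in the tumour. The means were 38.5% ± 6.65 (SD, n = 2) and 51.8% ± 6.51 (SD, n = 2), a difference of −13.3 percentage points. A two-sided exact permutation test gave p = 0.33, the smallest that 2 against 2 allows, so this design cannot pass 0.05.

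The other sets showed no gap of this size. Over all merged regions, the in vitro positive libraries had a peak in 63.7% and 57.5% and the negative ones in 60.0% and 55.0%. For the mirror set these were 88.0% and 81.2% against 85.7% and 79.3%. In the regions of all 8 tumour libraries the shares were 97.2% to 98.4% in the 4 libraries. Relative to the share of all merged regions in the same library, the positive-only regions stood at −20.5 and −23.7 percentage points in the in vitro positive libraries and at −3.57 and −7.79 points in the negative ones (difference −16.4 points, exact permutation p = 0.33). The in vitro libraries held 63761 and 53869 peaks in the positive group and 56476 and 49634 in the negative group. The labels do not say whether the in vitro and RNA replicates came from separate animals or cultures, so a p-value over them speaks to the variation among these libraries, which may be technical.

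**Figure D4:**
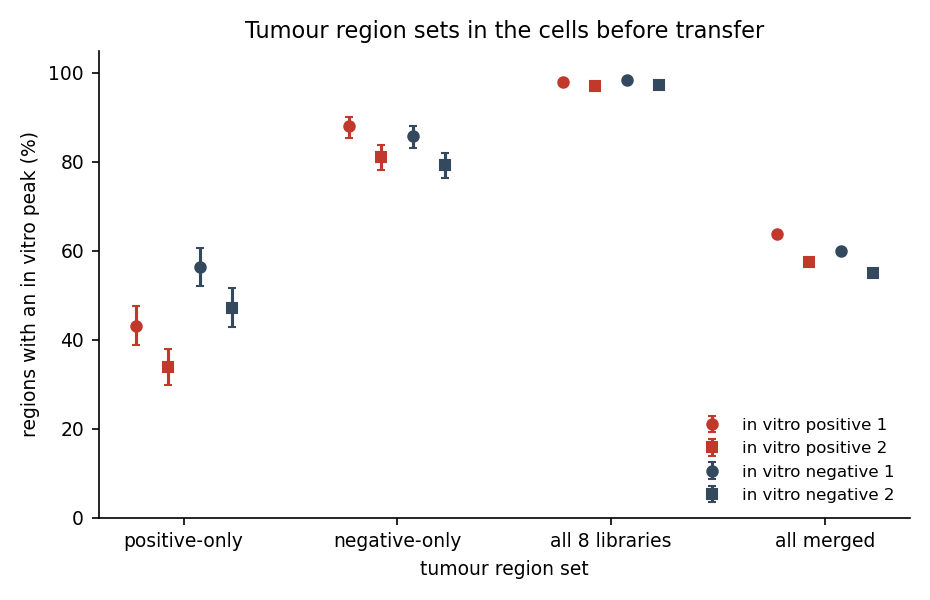
Share of tumour regions (vertical axis, %) that had a peak in each in vitro library, for the positive-only regions, the mirror set, the regions open in all 8 libraries and all merged regions. Bars are 95% Wilson intervals, which cover counting error only; in the positive-only set both in vitro negative libraries (56.4% and 47.2%) lie above both positive ones (43.2% and 33.8%).

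By pattern, 142 positive-only regions (28.4%) had a peak in all 4 in vitro libraries, where 48.3% of all merged regions did. In none of the 4 were 178 (35.6%), beside 30.4% of all merged regions. A peak in both in vitro negative libraries and in neither positive one was found in 41 (8.2%, background 1.59%), and the reverse in 5 (1.0%, background 3.45%). In the mirror set the counts were 6 and 17 of 750. Leaving out in vitro negative replicate 2 moved the 8.2% to 17.0% and the 1.0% to 2.4%, and without in vitro positive replicate 2 the latter was 4.0%. A left-out in vitro library loosens the pattern, so these shares cannot fall, and their background was not recomputed.

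The 5 regions open in both in vitro positive and neither in vitro negative library lay in Tnrc6c, a gene of miRNA silencing (5.24, 5.19, 5.45 and 5.04 in the tumour), near Ercc6l2, a DNA repair gene (3.91, 5.76, 6.53 and 5.58), near Bach2, in Ppp3ca, the catalytic subunit of calcineurin (4.34, 3.73, 3.16 and 3.78), and in Arpc3, a subunit of the actin-nucleating Arp2/3 complex (2.34, 2.08, 1.89 and 2.43). They are the regions called in every positive library and in no negative library both before transfer and in the tumour.

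In the tumour, the regions with peaks in all 4 in vitro libraries had median fold enrichments of 5.29, 5.58, 5.39 and 5.37, and those with none 4.73, 5.34, 5.18 and 4.83. Gene bodies held 99 of the former 142 and 87 of the latter 178. Where all 4 in vitro libraries had a peak, its median fold enrichment was 4.34 and 4.40 in positive cells against 5.14 and 5.39 in negative cells. The regions of all 8 tumour libraries had the same order, with 5.03 and 5.61 against 5.76 and 6.01.

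RNA of the sorted cells before transfer was tested with edgeR's quasi-likelihood test over 12022 genes, adjusted by Benjamini-Hochberg and called at 0.05. This RNA does not come from the tumour, and Partek's estimated counts were used. Of the 280 genes with a positive-only region 221 were expressed highly enough to be tested, and 57 of them were called, or 25.8%, beside 25.0% of all tested genes. RNA was higher in positive cells for 25 (11.3%, background 11.3%) and lower for 32 (14.5%, background 13.6%). The median log2 difference was 0.006 over these genes and 0.002 over all tested genes. These shares were near the background. With library size alone as the scaling, 39 were higher and 24 lower (28.5% called, beside 28.7% of all genes). The median log2 difference was then 0.068 over these genes and 0.065 over all tested genes. The balance of directions thus depends on the scaling, which moved all tested genes alike. DESeq2 called 34 (15.4%, beside 14.4% of all genes), and 34 were called without RNA positive replicate 1 (15.3%, beside 14.0%). Markers of other cells also differed in these RNA libraries. Summed levels of the 8 listed of 9 B and plasma cell markers were 15.9 and 14.7 CPM (counts scaled by library size) in positive and 5.18 and 6.36 CPM in negative cells. For 7 of 11 myeloid markers they were 23.9 and 23.8 against 9.77 and 10.5 CPM. Only 1 of 7 granulocyte and mast cell markers was listed, at 19.8 and 19.3 against 49.1 and 46.5 CPM. NK cell markers (2 of 4 listed) were at 2.00 and 3.33 against 6.73 and 8.39 CPM. CD4 T cell markers (3 of 4) were at 59.0 and 53.9 against 78.5 and 70.6 CPM. Erythroid markers (3 of 5) were at 2.90 and 2.32 against 2.26 and 1.54 CPM. The melanoma markers overlapped between the groups, as did those of fibroblasts, endothelium and epithelium. Summed levels of 9 CD8 T cell markers were 2525 and 2562 against 2802 and 2849 CPM. Their part in the RNA results was not tested.

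Tox RNA was higher in positive cells. Its level was 12.7 and 11.5 CPM in positive replicates 1 and 2 and 5.56 and 4.47 CPM in the negative ones, a log2 difference of 1.27 (SE 0.17, edgeR adjusted p = 2.96e-05). The groups did not overlap. Itga4 was at 196 and 186 against 126 and 134 CPM, a log2 difference of 0.56 (SE 0.05, edgeR adjusted p = 3.93e-07). Tgfbr3 was at 63.2 and 62.5 against 42.0 and 49.6 CPM, a log2 difference of 0.46 (edgeR adjusted p = 0.000279). All 3 genes were called under every RNA alternative tried.

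Map3k20, a kinase that senses stalled ribosomes, was at 28.5 and 22.4 CPM in positive and 17.3 and 19.0 CPM in negative cells (log2 difference 0.49, edgeR adjusted p = 0.00529, but 0.173 without positive replicate 1). Sox5, an HMG-box factor gene, had counts of 14 and 11 in positive cells against 2 and 1 in negative cells, a ratio of 7.32 with an exact 95% counting interval of 2.23 to 37.9. Its call (edgeR adjusted p = 0.0174) was lost with DESeq2 (0.117) and without negative replicate 1, negative replicate 2 or positive replicate 2 (0.0524, 0.0868 and 0.0694). It was too low to be tested without positive replicate 1.

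Lower RNA in positive cells was found for Spry4, an inhibitor of RAS-ERK signalling, at 1.50 and 1.63 against 3.17 and 4.33 CPM (log2 difference −1.25, SE 0.31, edgeR adjusted p = 0.00566). Sh3pxd2a, a podosome scaffold gene, was at 17.3 and 14.5 against 25.2 and 27.0 CPM (log2 difference −0.71). Vps37b, an ESCRT-I subunit of endosomal sorting, was at 171 and 165 against 263 and 284 CPM (log2 difference −0.70, SE 0.05, edgeR adjusted p = 1.41e-08). The region in Vps37b was among the flattest of the set, with fold enrichments of 2.15, 1.84, 1.78 and 1.78. Scml4, a Polycomb-related gene, was at 8.35 and 9.98 against 13.8 and 15.9 CPM (log2 difference −0.70).

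Gpr19, an orphan receptor gene, was at 5.68 and 6.40 against 10.2 and 7.90 CPM (log2 difference −0.59, edgeR adjusted p = 0.0238). This call was lost with DESeq2 (0.131) and without negative replicate 1 (0.197) or positive replicate 1 (0.159).

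**Figure D5:**
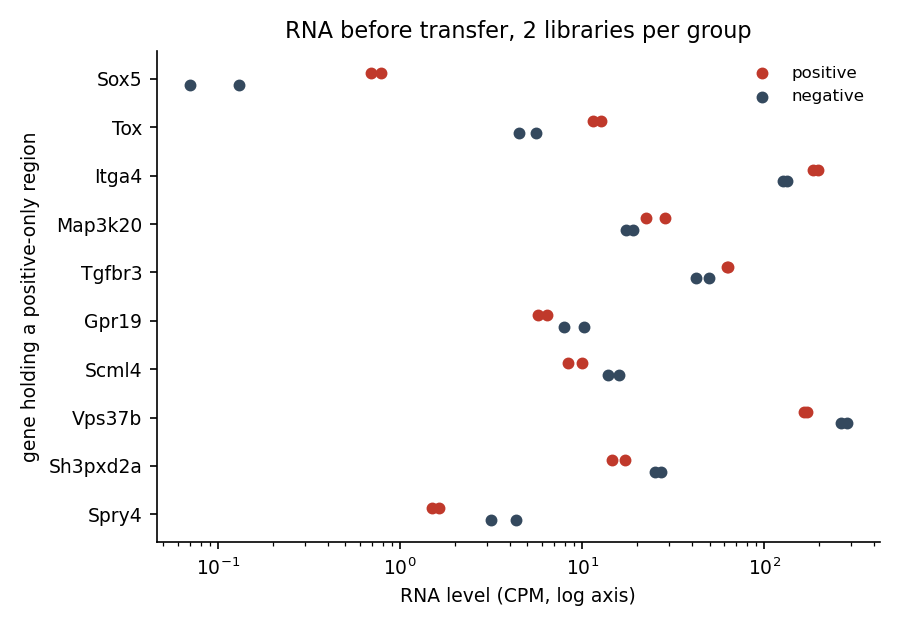
RNA level (horizontal axis, CPM on a log axis) in the 2 LC3-GFP positive and 2 negative libraries of cells before transfer, for the 5 genes called higher and the 5 called lower with the largest changes among genes holding a positive-only region. Each point is a library; the positive and negative points do not overlap for any of the 10 genes, which were picked for their change.

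The other genes with named regions gave smaller differences. Jak1 was at 388 and 400 against 496 and 472 CPM (log2 difference −0.30, edgeR adjusted p = 9.25e-05), and Tnk2, Osbpl9 and the histone H4 methyltransferase gene Kmt5b were also lower, by −0.37, −0.33 and −0.28 on the log2 scale. The Osbpl9 call was lost without positive replicate 1 (edgeR adjusted p = 0.057) and the Kmt5b call without positive replicate 2 (0.0809). Ppp3ca was just past the threshold (log2 difference −0.17, edgeR adjusted p = 0.0481), and not with DESeq2 (0.188), with library size alone (0.199) or without negative replicate 1, positive replicate 1 or positive replicate 2 (0.374, 0.178 and 0.206). Lef1 did not pass (log2 difference −0.14, edgeR adjusted p = 0.0591), nor did Foxp1 (−0.07, 0.310), Tet1 (0.06, 0.749), Arid1b (−0.04, 0.615), Gabpa (0.05, 0.532) or Bach2 (−0.18, 0.063). With the replicate block Lef1 passed (edgeR adjusted p = 0.0138), but not with DESeq2 (0.180) or with library size alone (0.288).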

How the data were processed

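ATAC peaks were deposited by the authors as 1 list per experiment, with each peak tied to 1 library, so peaks were called per library. Per the submitters' processing notes, Partek, cutadapt, BWA and MACS2 were used on mm10. Tool versions and any Tn5 shift of the reads are not given in the sources used here. Per the file headers, each deposited peak has its summit's pileup signal, its fold enrichment over local background, and −log10 of its p-value and q-value. Peak callers use read depth, so a shallower library lists fewer weak peaks, and values were ranked only within a library. Fold enrichments of several libraries stand side by side as a description. RNA values are estimated counts per gene deposited by the authors, made with Partek and STAR on mm10 per the submitters' processing notes, which also name DESeq2.

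Coordinates are as the lists give them. Gene positions came from the RefSeq table of GRCm38.p6, and strand was known for 19903 of 21887 protein-coding genes. Genes without strand got the 2.0 kb on both sides. Regions were not split into exon, intron or UTR. Estimated counts were rounded, filtered with filterByExpr and scaled by TMM in edgeR 4.0.16, and tested with glmQLFTest. Totals were 14567540 to 17557628 counts. Of 13275 RNA genes, 13218 matched the RefSeq table. Strandedness and the handling of shared reads are not given, so overlapping and near-identical genes are uncertain. The scripts were tested on simulated data. Regions were named by a rule: the 10 strongest and 3 weakest by mean percentile of −log10 q, the 10 strongest near a gene start, those in genes of the pathway lists, those of the 5 RNA calls with the largest change each way, and up to 8 open in both in vitro positive libraries alone. Members and lists were chosen with earlier results of these data known. Alternatives were other q-value minimums, overlaps, equal peak numbers, left-out libraries, RNA scaling, DESeq2 1.42.0, no filter, a replicate block and other gene assignments.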

Additional observations from a re-analysis of the deposited data

Results flagged for a closer look

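Of 53 groups of 4 tumour libraries examined for a library standing far from the other 3, 2 were flagged, and chance flags about 1 in 20. Positive replicate 1 had 27406 peaks, where the other positive libraries had 36539 to 37477. In the same library 1.82% of its own peaks lay in positive-only regions, beside 1.34% to 1.38% in the other 3. All 4 libraries have a peak in each of these regions by the rule, so the second value moves with the first.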

How the results depend on the processing

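The number of positive-only regions was 444 to 502 under stricter q-values and other merging. With the same number of top peaks taken from each library it was 770, and 252 of the 500 regions overlapped one of these. Leaving out 1 library gave 541 to 1208, the highest without positive replicate 1, and leaving out the libraries with the most and fewest peaks, chosen after seeing the data, gave 1526. The in vitro difference was −18.1 to −7.66 percentage points under stricter q-values, a 50 bp overlap, equal numbers of in vitro peaks and each left-out library; it was not recomputed for the sets of 770 and 1526 regions or the other merging. The share open in both in vitro positive libraries alone ranged from 0.909% to 4.0%, and the share open in both in vitro negative libraries alone from 5.88% to 17.0%, over left-out libraries. No background was recomputed for these shares. Within 2 kb of a gene start lay 7.0%. RNA calls were 34 with DESeq2, 34 to 62 over left-out libraries (15.3% to 27.6%, beside 14.0% to 28.1% of all genes), and 0 of 2 tested genes where only starts within 1.0 kb counted. The median log2 difference was 0.068 with library size alone, beside 0.065 over all tested genes. It was 0.023 for the nearest start within 50 kb and 0.165 for starts within 1.0 kb, beside 0.002 over all tested genes. Over left-out libraries it was 0.0020 to 0.014. With −log10 q of at least 5 it was −0.032, and 281 of the 500 regions overlapped a member. At that setting 18 genes were higher and 45 lower (28.8% called, beside 25.0% of all genes, of which 11.3% were higher and 13.6% lower). Apart from those where fewer samples or genes were used, the cause was not tested. The main RNA fit did not pair libraries by replicate number. Deviations within a group of 2 libraries mirror each other, so both numbers give the same correlation of deviations, 0.065, which does not settle pairing. With the replicate block 65 genes were called (29.4%, beside 29.7%). Motif and GC alternatives over whole regions were not run, since no genome was used here. Peak lists without read depth limit all statements on closed chromatin.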
